A study of Mus musculus with 21 samples.

Results

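Arterial endothelial cells, the cells that line arteries and arterioles, were followed through the first week of regeneration in aged mouse muscle. The cells described were those that carried the label Endothelial (Artery) after Harmony integration, a method that aligns cells of different libraries before they are clustered. There were 1702 of them among 87822 cells (1.94%), which placed them 15th by number of the 23 Harmony cell types. They made up 11.4% of all endothelial cells, beside 12614 capillary and 617 venous endothelial cells. Every mouse contributed, with 17 to 420 arterial cells.

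Single-cell RNA was measured in dissociated tibialis anterior muscle, a shin muscle, from 21 female C57BL/6J mice aged 20 months, with 1 mouse in each library. Of these, 4 were uninjured, and the others had been injected with notexin, a snake venom phospholipase that destroys myofibres. There were 4 mice in the 1 dpi (days post-injury) group, 3 in the 2 dpi group, 4 in the 3.5 dpi group and 3 in each of the 5 and 7 dpi groups. All groups shared strain, sex, age and muscle, and injured mice were assigned to time points at random, with several time points taken on the same day according to the methods. The days themselves were not labelled, so no day could be entered in a test.

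Arteries carry blood into a muscle, capillaries exchange it with the fibres, and venules and veins drain it and are the main site where leukocytes leave the blood. Arterial identity depends on Notch signalling, and arteries and arterioles, unlike capillaries, are wrapped in a coat of contractile smooth muscle. After a toxin injury the muscle fills with leukocytes within days while vessels and fibres are rebuilt. The study named the clusters from canonical genes. Arterial endothelial cells are commonly recognised by Pecam1 (an adhesion molecule of endothelial junctions), Alpl (the tissue-nonspecific alkaline phosphatase) and Hey1 (a transcriptional repressor downstream of Notch), but single-gene values were not analysed here, so the label could not be checked against these markers.

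What the tables gave for each cell was its number of transcripts, counted by unique molecular identifiers (UMIs), its number of genes detected, the percentage of its UMIs from each of several gene classes, a doublet score and its cell type label. The libraries held 974 to 10556 cells and 5602464 to 70730171 UMIs in those cells. Sequencing saturation lay between 28.1% and 87.4%. Of the barcodes first called as cells, 25.3% to 49.5% remained in the uninjured libraries and 54.3% to 83.2% in the libraries after injury. At most 0.418% of barcodes were shared by any pair of libraries, and 1 barcode was found among the arterial cells of more than 1 library. Of the arterial cells, 34 (2.00%) had fewer than 750 genes, against 6.50% of the other cells.

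The arterial share of all cells fell after injury at each of the 5 time points, was lowest at 3.5 dpi and was higher again at 7 dpi. In the uninjured mice, arterial cells made up 6.57%, 5.24%, 8.35% and 6.37% of the cells (6.63% ± 1.29, SD, n = 4). At 1 dpi the shares were 1.03%, 2.92%, 0.442% and 1.12%, and the 2 dpi mice had 0.824%, 0.892% and 2.51%. The shares at 3.5 dpi were 0.798%, 0.988%, 0.296% and 0.436%, and in the 5 dpi group they were 0.338%, 1.14% and 1.81%. The mice at 7 dpi lay close together, at 2.33%, 2.48% and 2.69%. No mouse after injury reached the lowest uninjured mouse, a pattern that was not counted over the other types. In addition, every mouse at 7 dpi lay above every mouse at 3.5 dpi. That last pattern was shared by 56.5% of the 23 types.

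**Figure D1:**
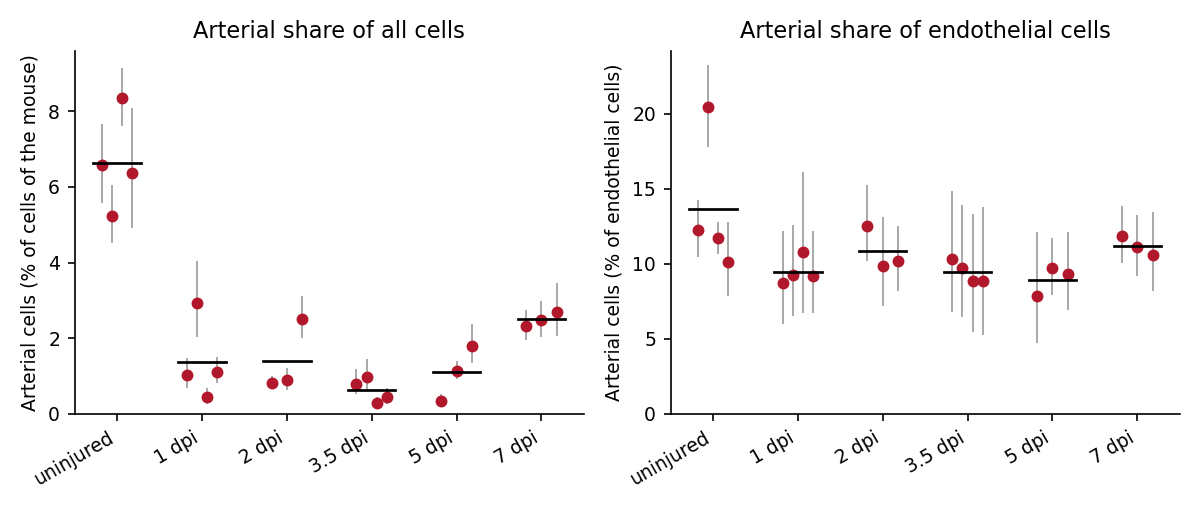
Arterial endothelial cells as a percentage of all cells of a mouse (left) and of its endothelial cells (right), by time point, with 1 point for each mouse, grey bars for the exact 95% binomial interval and black lines for the group mean. On the left all mice after injury lie below the uninjured mice, and on the right the groups overlap at 4 of the 5 time points.

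Over the 6 time points the arterial share differed (permutation F test, adjusted p = 0.000153 over 23 types, 78.3% of which passed). The 1 dpi mean was 1.38% ± 1.07 (n = 4), the 2 dpi mean 1.41% ± 0.956 (n = 3) and the 3.5 dpi mean 0.630% ± 0.319 (n = 4). The 5 dpi mean was 1.10% ± 0.736 and the 7 dpi mean 2.50% ± 0.184 (n = 3 each). These means lay 4.81, 4.71, 10.5, 6.05 and 2.65 times below the uninjured mean, against which all 5 were compared. The adjusted p from limma was 1.39e-05, 4.05e-05, 1.36e-06, 1.39e-05 and 0.00153 in the same order. Of all types, 26.1% fell past the threshold at 1 dpi, 43.5% by the 2 dpi comparison, 39.1% by the 3.5 dpi comparison, 17.4% by the 5 dpi comparison and 13.0% by the 7 dpi comparison. The exact two-sided permutation test gave p = 0.0286 at each time point, the smallest value that these group sizes allow.

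A share of cells falls when arterial cells are lost and also when other cells are added, and these cannot be told apart from a share alone. The part of the barcodes kept moved with the groups, as given above. Divided by the barcodes called before filtering, the difference between 3.5 dpi and uninjured mice was -2.26 points instead of -6.00 (permutation F test over the time course, adjusted p = 0.00452). With this denominator all mice at 7 dpi, 1 dpi replicate B and 2 dpi replicate C lay above the lowest uninjured mouse, replicate B. Single time points were not tested against uninjured mice in this way. The exact 95% binomial intervals of single mice, which cover counting error only, ran from 0.181% to 0.458% in the mouse with the lowest share (3.5 dpi replicate C) and from 7.60% to 9.15% in the mouse with the highest (uninjured replicate C).

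The arterial share was also counted among non-immune cells only, which removes the leukocytes and the cells without a Harmony label from the denominator. This share was lower at 3.5 and 5 dpi but not past the threshold at the other time points. The uninjured mice held 6.74%, 5.46%, 8.55% and 6.53% arterial cells among their non-immune cells. The 1 dpi mice held 4.60%, 4.93%, 1.98% and 4.27%, and the 2 dpi mice 5.24%, 4.94% and 6.85%. At 3.5 dpi the values were 3.0%, 3.60%, 1.68% and 2.12%, the 5 dpi mice had 1.40%, 2.35% and 3.12%, and the 7 dpi mice had 3.4%, 3.35% and 3.91%. The groups at 1, 3.5, 5 and 7 dpi did not overlap with the uninjured group, whereas 2 dpi replicate C lay inside it. Neither this pattern nor the calls that follow were counted over the other non-immune types. The limma adjusted p was 0.00338 at 3.5 dpi and 0.00338 at 5 dpi, and 0.0678, 0.587 and 0.0612 at 1, 2 and 7 dpi.

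The arterial cells also held a smaller part of the UMIs counted in the cells kept. The part of all reads that lay in called cells was 44.2% to 56.3% in uninjured libraries and 94.2% to 94.8% at 3.5 dpi. At 7 dpi that part was 66.5% to 75.6%. Arterial cells contributed 6.47%, 6.06%, 12.9% and 8.72% of the UMIs in the cells kept from the uninjured libraries. At 3.5 dpi they contributed 0.254%, 0.523%, 0.133% and 0.244%, and at 7 dpi 2.37%, 2.22% and 3.02%. Their part of the UMIs lay above their part of the cells in 3 of 4 uninjured mice (means 8.53% ± 3.13 and 6.63% ± 1.29) and below it in 4 of 4 mice of the 3.5 dpi group (means 0.288% ± 0.166 and 0.630% ± 0.319). The median over all cells of a mouse was 3115 to 4774 UMIs in uninjured mice and 8875 to 14614 at 3.5 dpi. The median of arterial cells was 4662 to 5554 UMIs in uninjured mice and 3950 to 7664 at 3.5 dpi.

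Within the endothelium the arterial share did not differ past the threshold. The uninjured mice had 12.2%, 20.4%, 11.7% and 10.1% arterial cells among their endothelial cells, with replicate B far above the other mice. The 1 dpi mice had 8.72%, 9.23%, 10.8% and 9.17%, and the 2 dpi mice 12.5%, 9.86% and 10.2%. At 3.5 dpi the shares were 10.3%, 9.70%, 8.85% and 8.85%, the 5 dpi mice had 7.83%, 9.71% and 9.30%, and the 7 dpi mice had 11.9%, 11.1% and 10.6%. The 5 dpi mice lay below all uninjured mice and the other groups overlapped with them. The permutation F test gave p = 0.0347 and an adjusted p of 0.104 over the 3 vessel types, with adjusted p = 0.936 for capillary and 0.321 for venous cells. The exact permutation tests against uninjured mice gave an adjusted p of 0.0952 at 1, 3.5 and 5 dpi and 0.629 at 2 and 7 dpi.

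The endothelial share rested on which cells were kept. When the cells were limited to those of 1000 genes or more, 2000 UMIs or more and no more than 15% mitochondrial UMIs, arterial cells were 18.6%, 39.3%, 19.9% and 11.5% of the endothelial cells in the uninjured mice and 8.81% to 14.9% after injury (adjusted p = 0.0458). In the uninjured mice 27.5%, 33.0%, 50.7% and 82.3% of the arterial cells met these limits, against 16.6%, 11.4%, 26.3% and 71.4% of the capillary cells. After injury 65.7% to 100% of the arterial and 52.4% to 86.0% of the capillary cells met them. Without uninjured replicate D the test on all cells also passed (adjusted p = 0.00930).

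Relative to venous endothelial cells, arterial cells were fewer after injury. For each arterial cell the uninjured mice had 0.188, 0.302, 0.207 and 0.210 venous cells. The 1 dpi mice had 0.467, 0.686, 0.450 and 0.442, and the 2 dpi mice 0.368, 0.293 and 0.50. The ratios were 0.240, 0.385, 0.800 and 0.706 at 3.5 dpi, 0.833, 0.557 and 0.854 at 5 dpi, and 0.496, 0.286 and 0.525 at 7 dpi. All mice at 1 and 5 dpi lay above the uninjured mice, and the other groups overlapped with them. On the log2 scale, with 0.5 cells added to each number, the ratio of arterial to venous cells was 2.15 ± 0.29 (n = 4) in uninjured mice and 0.44 ± 0.35 (n = 3) at 5 dpi, a difference of -1.71 (permutation F test over the time course, adjusted p = 0.0182 over 3 ratios). Only 6 to 87 venous cells stood behind each ratio. The call was lost without uninjured replicate A (adjusted p = 0.0714), without uninjured replicate C (0.0622), without 5 dpi replicate A (0.0531) and without 5 dpi replicate C (0.0536). It was also lost with the labels of BBKNN, another integration method (0.114).

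**Figure D2:**
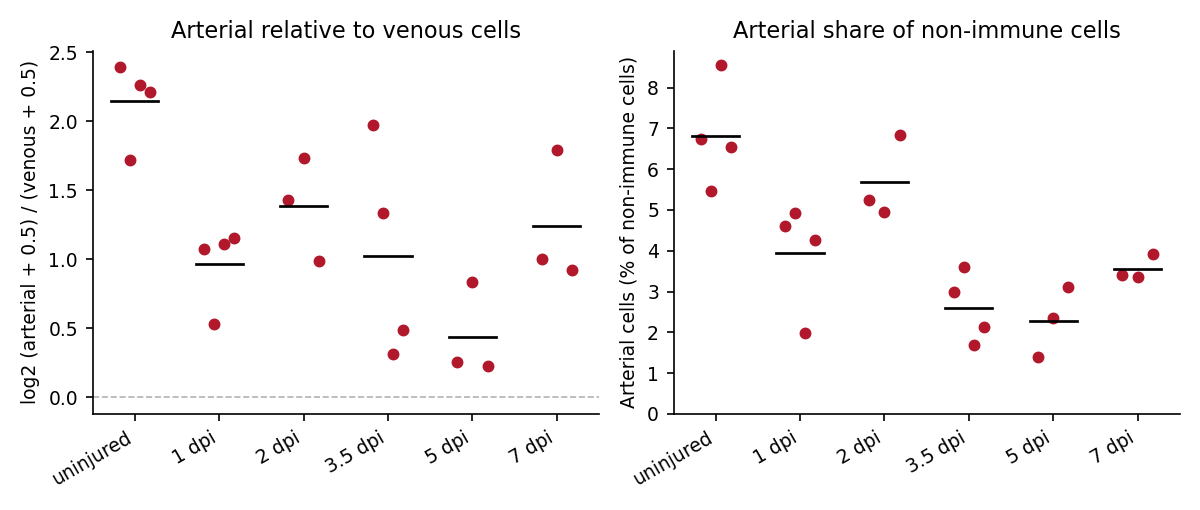
The log2 ratio of arterial to venous endothelial cells with 0.5 cells added to each (left) and the arterial share of non-immune cells in percent (right), by time point, with 1 point for each mouse and a black line for the group mean. The ratio is lowest at 5 dpi, where its mean is 0.44, and the share is lowest at 5 dpi with a mean of 2.29%.

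Against capillary and smooth muscle cells the arterial numbers did not move past the threshold. There were 3.59 to 8.69 capillary cells for each arterial cell in uninjured mice and 6.61 to 10.9 after injury (permutation F test on the log2 ratio, adjusted p = 0.0748). This ratio passed under the stricter filter (adjusted p = 0.0330) and without uninjured replicate D (0.0293). Smooth muscle cells, which form the wall of the same vessels, numbered 0.839, 1.36, 0.481 and 0.645 for each arterial cell in uninjured mice. At 5 dpi there were 2.89, 1.69 and 1.88, more than in any uninjured mouse (adjusted p = 0.0748 over the time course). The log2 ratio of arterial to smooth muscle cells differed by -1.42 between 5 dpi and uninjured mice, and the call passed without uninjured replicate B (adjusted p = 0.0450).

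Single arterial cells held a median of 5128 UMIs, with 1737 at the 5th and 17645 at the 95th percentile, and a median of 2029 genes, with 907 and 4431 at the same percentiles. The number of UMIs is not an absolute RNA content, since it also depends on sequencing depth. By mouse the median was 5532, 5179, 4662 and 5554 UMIs in the uninjured group and 6210, 4475, 7107 and 7731 at 1 dpi. It was 3491, 4812 and 5756 at 2 dpi and 4387, 7664, 3950 and 5581 at 3.5 dpi. At 5 dpi it was 5602, 3765 and 5863, and at 7 dpi 4901, 5780 and 7646. All groups after injury overlapped with the uninjured group (permutation F test, adjusted p = 0.627 for UMIs and 0.426 for genes).

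The gene classes reflect broad features of a cell's transcript pool. Mitochondrial transcripts come from the genome of the mitochondria, and a high share is often read as a sign of a stressed or leaky cell. Ribosomal protein genes encode the protein part of the ribosome, heat shock protein genes encode chaperones induced by stress and by dissociation of tissue, and long intergenic noncoding RNAs (lincRNAs) lie between protein-coding genes. Of 14 measures tested in arterial cells, 3 differed over the time course, namely the mitochondrial, ribosomal protein and transcription factor shares. Over the 16 types with enough cells, 38.8% of all 224 pairs of type and measure passed the same threshold. At an unadjusted p under 0.05 there were 4 arterial measures, with the background at 48.2%. Arterial cells thus had a smaller part of their measures past either threshold than all pairs together.

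The mitochondrial share of arterial cells was lower after injury in most mice. In the uninjured mice it was 18.8%, 18.4%, 15.3% and 9.66% of UMIs (15.5% ± 4.23, n = 4). At 1 dpi it was 8.76%, 11.2%, 4.58% and 7.81%, and at 2 dpi 8.29%, 6.89% and 11.0%. It was 7.72%, 7.15%, 9.06% and 7.29% at 3.5 dpi, 10.2%, 9.06% and 8.36% in the 5 dpi group, and 9.53%, 9.71% and 8.25% in the 7 dpi group. Uninjured replicate D stood apart from its group and overlapped with mice at 1, 2, 5 and 7 dpi, while the other 3 uninjured mice lay above all mice after injury. This separation was not counted over the other types or measures. The largest difference from the uninjured mean was -7.73 points, at 3.5 dpi (permutation F test, adjusted p = 0.0251).

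In the uninjured mice 72.5%, 67.0%, 47.9% and 12.9% of the arterial cells had over 15% mitochondrial UMIs, against 0% to 28.6% in the mice after injury. The mean over all cells of a mouse moved in the same way, from 9.44% to 18.3% in uninjured mice to 4.56% to 8.87% after injury. The part of the barcodes kept moved the other way, from 25.3% to 49.5% in uninjured mice to 54.3% to 83.2% after injury. Their part in the result was not tested. The call was lost without uninjured replicate A (adjusted p = 0.0702), B (0.0653) or C (0.0637), and among cells with 2000 to 10000 UMIs (0.0549). Among the 17 mice after injury alone the mitochondrial share did not differ past the threshold (adjusted p = 0.832).

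**Figure D3:**
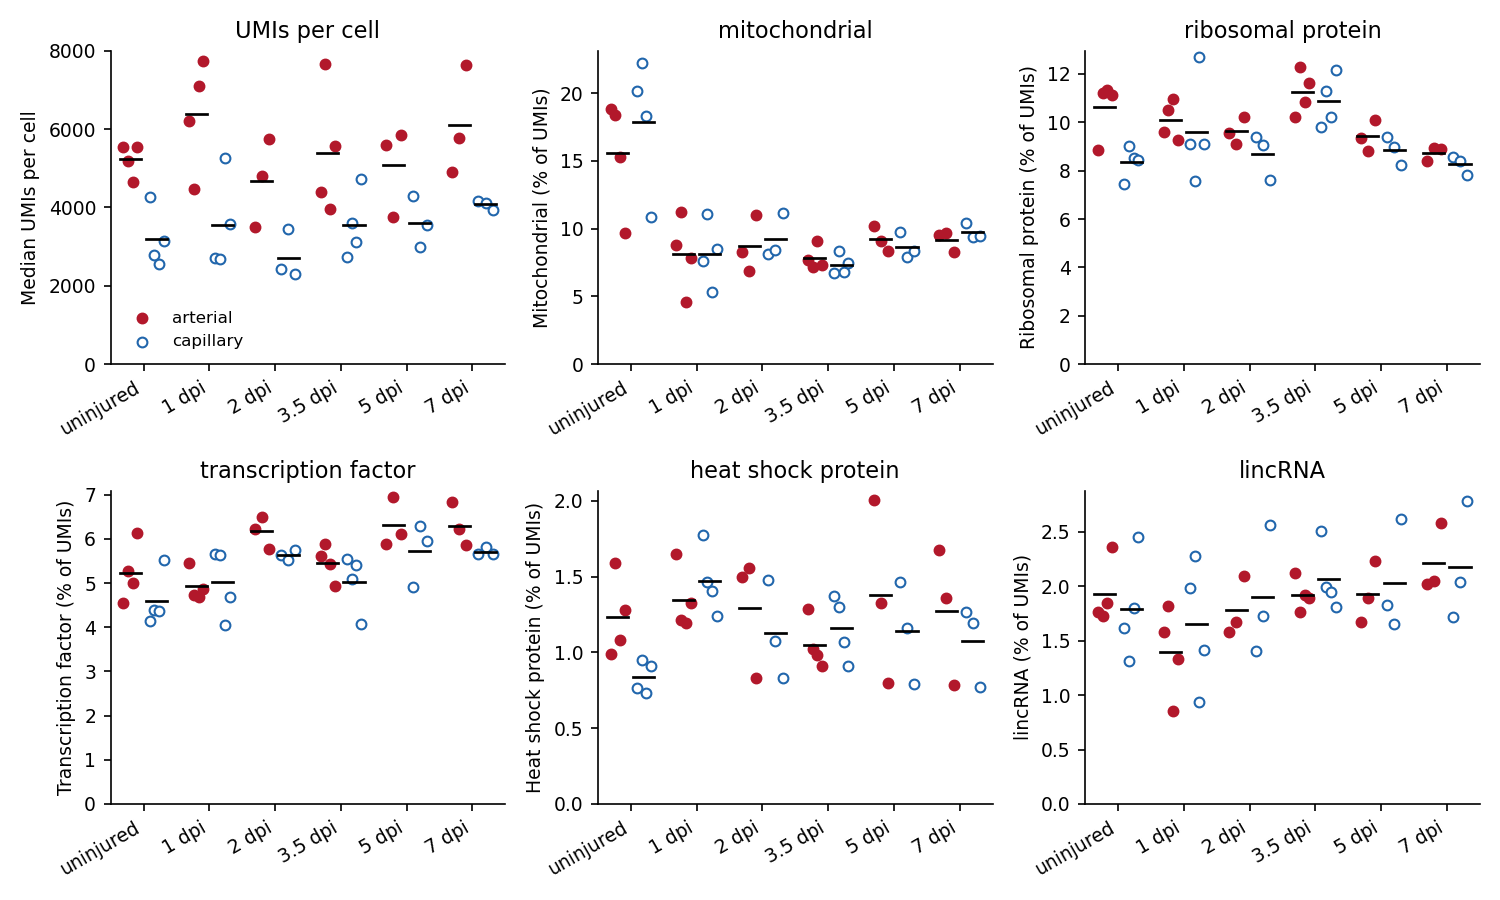
Median UMIs per cell and the mean percentage of UMIs from 5 gene classes in arterial (filled red) and capillary (open blue) endothelial cells, by time point, with 1 point for each mouse and black lines for group means. The mitochondrial share of arterial cells averages 15.5% in uninjured mice and 7.80% at 3.5 dpi, and the median UMIs of arterial cells lie above those of capillary cells in each mouse.

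The share of transcripts from transcription factor genes had its highest means at 2, 5 and 7 dpi and its lowest at 1 dpi. It was 4.56%, 5.27%, 5.00% and 6.13% in uninjured mice and 5.45%, 4.73%, 4.69% and 4.86% at 1 dpi. The 2 dpi mice had 6.22%, 6.51% and 5.78%, and the 3.5 dpi mice 5.61%, 5.88%, 5.44% and 4.93%. The values were 5.88%, 6.95% and 6.11% at 5 dpi and 6.83%, 6.22% and 5.85% at 7 dpi. All mice at 2, 5 and 7 dpi lay above all mice at 1 dpi, and uninjured replicate D overlapped with them. This order was seen in the values and was not counted over the other types or measures. The difference from uninjured was largest at 5 dpi, with means of 6.32% ± 0.561 (n = 3) and 5.24% ± 0.665 (n = 4), or 1.08 points (permutation F test, adjusted p = 0.0246). It also passed among the 17 mice after injury alone (0.0181), but not among cells with 2000 to 10000 UMIs (0.0664). The rise was not particular to arterial cells. At 5 dpi the mean was also higher in capillary (1.11 points), smooth muscle (0.802) and venous cells (0.787), none past the threshold. The arterial minus capillary difference in this share did not change past the threshold over time (permutation F test, adjusted p = 0.684).

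The ribosomal protein share was highest at 3.5 dpi and lowest at 7 dpi. It was 8.85%, 11.2%, 11.3% and 11.1% in uninjured mice, where replicate A lay well below the other 3, and 10.2%, 12.3%, 10.8% and 11.6% at 3.5 dpi. The 7 dpi mice, at 8.41%, 8.92% and 8.89%, lay below all mice at 1, 2 and 3.5 dpi and overlapped with uninjured replicate A and 5 dpi replicate B. This order was not counted over the other types or measures. Means were 10.6% ± 1.20 (n = 4) in uninjured mice and 8.74% ± 0.286 (n = 3) at 7 dpi, a difference of -1.90 points (permutation F test, adjusted p = 0.0471). This call was lost when any of 17 single mice was left out, with an adjusted p of 0.0510 to 0.0977, and passed without uninjured replicate A, 2 dpi replicate C, 3.5 dpi replicate A or 5 dpi replicate C. It was also lost with a minimum of 20 cells (adjusted p = 0.104), with medians in place of means (0.0923), with percentages pooled over UMIs (0.109) and in cells that were arterial by both Harmony and BBKNN (0.0543). Among the mice after injury alone the adjusted p was 0.0322.

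The other classes did not pass, and lincRNAs and protein-coding genes lay near the threshold. lincRNAs had their lowest mean at 1 dpi, with 1.58%, 1.82%, 0.855% and 1.33% of UMIs, against 1.76%, 1.73%, 1.84% and 2.36% in uninjured mice (permutation p = 0.0388, adjusted p = 0.0852). They passed with percentages pooled over UMIs (adjusted p = 0.0487), with percentages of non-mitochondrial UMIs (0.0492) and without 1 dpi replicate B (0.0361). Protein-coding genes made up 86.8% ± 1.56 of UMIs in uninjured mice (n = 4) and 91.1% ± 1.17 at 3.5 dpi (n = 4) (adjusted p = 0.109). These groups did not overlap, which was not counted over the other types or measures. Protein-coding genes passed with percentages pooled over UMIs (adjusted p = 0.0368) and without 1 dpi replicate B (0.0324). Heat shock protein genes took 0.785% to 2.00% of UMIs over all mice with no ordering by time (adjusted p = 0.886). Antisense transcripts took 0.0631% to 0.111% (adjusted p = 0.107). Bidirectional promoter lncRNAs, snoRNAs, snRNAs and transcripts classed as miRNAs each took at most 0.0247% of UMIs in any mouse, and their adjusted p ranged from 0.342 to 0.984. The doublet score had its lowest mean at 7 dpi, at 0.117, 0.124 and 0.109, against 0.142 to 0.275 in uninjured mice (adjusted p = 0.325).

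Beside the other vascular types of the same mouse, arterial cells took a middle place in transcript number. Since the types were defined from the same transcripts, these differences are given as a description with no test. Arterial cells had more UMIs than capillary cells in 21 of 21 mice, with a mean log2 difference of 0.68 ± 0.33, or 1.60-fold, and the ratio of medians ran from 1.17 (7 dpi replicate A) to 2.50 (2 dpi replicate C). They had more genes in 21 of 21 mice as well, by 1.36-fold. Venous cells held more UMIs than arterial cells in 17 of 19 mice with at least 10 cells of both (arterial over venous 0.725-fold), and smooth muscle cells in 19 of 21 (arterial over smooth muscle 0.597-fold).

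Arterial cells differed from venous cells most in the ribosomal protein and transcription factor shares. The ribosomal protein share was 10.0% in arterial and 14.4% in venous cells, a mean difference of -4.35 ± 1.26 points (n = 19), with the arterial cells lower in all 19 mice. The transcription factor share was 5.72% in arterial and 4.10% in venous cells, higher in arterial cells in 19 of 19 mice by 1.61 ± 0.508 points. Heat shock protein transcripts were higher in arterial cells in 18 of 19 mice (1.26% against 0.894%), and lincRNAs in 17 of 19 (1.88% against 1.41%). The mitochondrial share was nearly the same, at 10.3% and 10.4%.

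Compared with capillary cells, arterial cells had a higher transcription factor share in 19 of 21 mice (5.66% against 5.23%, difference 0.434 ± 0.485 points) and a higher ribosomal protein share in 16 of 21 (10.1% against 9.18%, difference 0.879 ± 1.26 points). The protein-coding share was higher in 20 of 21 mice, by 0.762 ± 0.572 points. Antisense transcripts were lower in 19 of 21 mice, at 0.0869% against 0.103%, and bidirectional promoter lncRNAs in 17 of 21, at 0.0170% against 0.0202%. Compared with smooth muscle cells, the lincRNA share of arterial cells was lower in 21 of 21 mice (1.85% against 3.31%), as was the doublet score (0.212 against 0.279).

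The distance between arterial and capillary cells was then compared across time points, which tests whether a measure moved differently in these neighbouring vessel types. Of the 14 measures, 1 passed, the doublet score, which is the share of artificial doublets among the nearest neighbours of a cell. The difference was 0.0874 ± 0.0267 (n = 4) in uninjured mice and 0.0115 ± 0.00888 (n = 3) at 5 dpi, a change of -0.0759 (permutation F test, adjusted p = 0.0346 over 14 measures). The arterial score stayed at 0.225 and 0.229, while the capillary score was 0.137 in uninjured mice and 0.218 at 5 dpi. According to the methods the score was computed in each library separately, so its scale may differ between libraries of unlike composition. Capillary cells averaged 45.3% of cells in uninjured mice, with a difference of -39.7 points at 3.5 dpi. The part of composition in the result was not tested. No mouse at 2, 3.5 or 5 dpi reached the lowest uninjured difference, 0.0634. The adjusted p was 0.159 among cells with 2000 to 10000 UMIs. The call was lost when any of 14 single mice was left out (adjusted p from 0.0505 to 0.112), and passed without uninjured replicate B, 1 dpi replicates A, B or D, 2 dpi replicates B or C, or 7 dpi replicate C.

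A pair of other measures passed only before adjustment. The heat shock protein share of uninjured arterial cells lay above that of capillary cells in all 4 mice, at 0.992%, 1.59%, 1.08% and 1.28% against 0.767%, 0.949%, 0.732% and 0.907%. At 1 dpi the arterial cells had 1.65%, 1.21%, 1.19% and 1.32% and the capillary cells 1.77%, 1.47%, 1.41% and 1.24%, so that the arterial cells were lower in 3 of 4 mice. The mean difference was 0.397 ± 0.176 points in uninjured mice and -0.127 ± 0.150 at 1 dpi (permutation p = 0.0149, adjusted p = 0.104). The mitochondrial share differed by -2.34 ± 1.32 points between arterial and capillary cells of uninjured mice, and by 0.531 ± 0.612 points at 5 dpi (permutation p = 0.0247, adjusted p = 0.115).

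**Figure D4:**
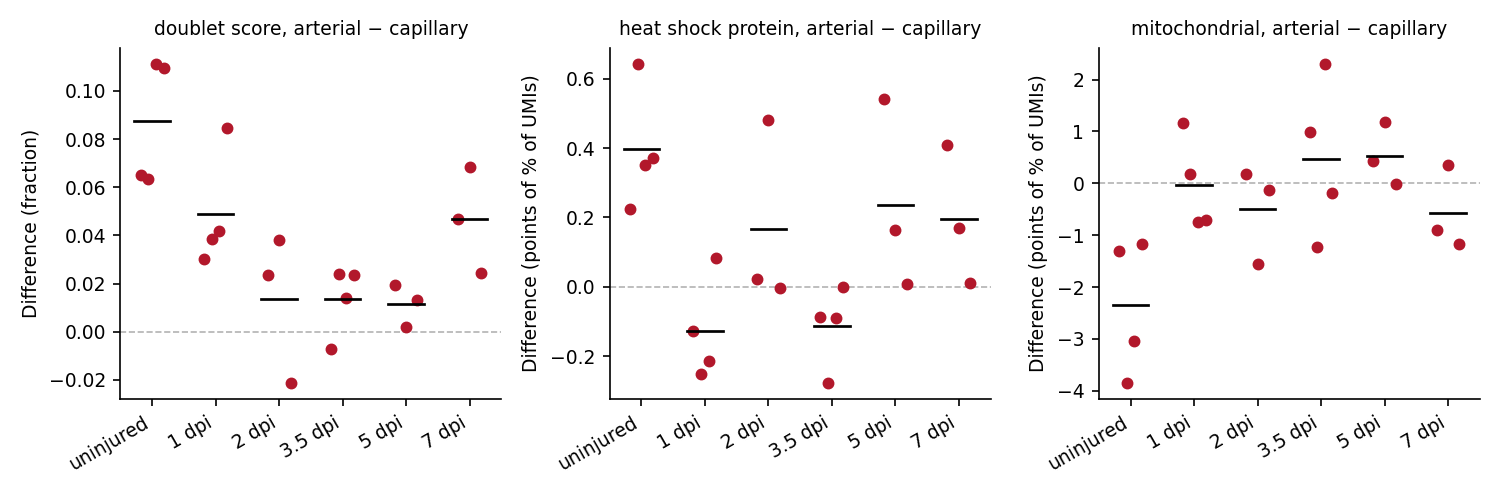
The difference between arterial and capillary endothelial cells of the same mouse in doublet score (fraction), heat shock protein share and mitochondrial share (percentage points of UMIs), by time point, with 1 point for each mouse and a black line for the group mean. The dashed line marks no difference, and the uninjured means lie at 0.0874, 0.397 and -2.34.

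The border between arterial and capillary cells depended on the integration method. BBKNN gave the arterial label to 1655 of the 1702 Harmony arterial cells and called 46 of them capillary. It called 2191 cells arterial in all, of which 462 (21.1%) were capillary by Harmony, 32 smooth muscle and 20 Cxcl10+ monocytes. Scanorama set apart no arterial type, and placed 1685 of the cells with capillary cells. Before their last filter the authors had given an arterial label to 2687 of the cells, of which 954 (35.5%) were capillary by Harmony.

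The disputed cells were unequally spread over the time course. The part of BBKNN arterial cells that Harmony called capillary was 10.5%, 20.2%, 6.68% and 11.9% in uninjured mice and 42.3%, 28.6%, 26.7% and 29.4% at 1 dpi, which did not overlap. It was 36.4%, 44.6% and 20.8% at 2 dpi, 4.0% to 28.9% at 3.5 dpi, 5.26% to 27.5% in the 5 dpi group, and 26.3%, 22.5% and 25.6% in the 7 dpi group. In the 15 mice with at least 10 such cells, they had a median of 2910 UMIs, cells arterial by both methods 5187, and cells capillary by both 3462. In 10 of these mice the disputed cells had a median below that of the capillary cells. With BBKNN labels the arterial share of cells was 7.51% ± 0.804 in uninjured mice (n = 4) and 0.817% ± 0.442 at 3.5 dpi (n = 4), and the fall passed the threshold at all 5 time points.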

How the data were processed

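Single-cell libraries (10x Genomics v3) of 21 mice were analysed from the tables of cells that the authors deposited, with 1 table for each mouse. According to the study's methods and the labels, the authors aligned reads to mm10 with Cell Ranger 3.1.0, removed ambient RNA with SoupX, filtered cells with Seurat (for which the sources give differing versions; the methods state a minimum of 750 genes, under which some cells in the tables lie), removed doublets with DoubletFinder, integrated these libraries with others, and named clusters of the integrated cells. According to the methods, cells below a minimum of transcripts or above a maximum mitochondrial share were also removed. The deposited UMI numbers are expected counts, since the ambient correction leaves values that are not whole. The gene class values are a percent of UMIs as computed by the authors. The sets overlap, and the protein-coding and mitochondrial percents summed to over 100 in 31.5% of cells. Saturation is a percent from the deposited tables, and the doublet score is a fraction from the authors.

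Groups came from the labels, and the mouse was the unit of every test. Cells without a Harmony label (3897) stayed in the denominator of the share of all cells and were left out of the non-immune denominator. After an arcsine square root transform, shares were compared over time by permuting the mice and taking F as the statistic (100000 resamples, for which the smallest p is 1e-05), with Benjamini-Hochberg adjustment over the 23 types, and each time point with uninjured mice by limma 3.58.1 over all types and 5 contrasts (R 4.3.3). Per-cell measures were summarised in mice with at least 10 cells of a type, as the log2 of the median for UMIs and genes and as the mean for the other 12, and tested over the 16 types that had 2 such mice at every time point. Paired differences between types were also put to an exact sign-flip test, used for comparing alternatives only. Ratios of cell numbers had 0.5 cells added. A p under 0.05 after adjustment was the threshold. edgeR 4.0.16 on cell numbers was an alternative. The software was scipy 1.17.1, numpy 2.4.6 and pandas 2.3.3 under Python 3.11.15, and the tests were run on simulated data first. Replicates are separate mice. Binomial intervals are exact (Clopper-Pearson, 95%). The cell type, the measures and the comparisons were chosen with earlier results of these data known. The rule for naming was to describe every per-cell measure of arterial cells and to name only capillary, venous and smooth muscle cells beside them. Monocytes were named in the label comparison after values were seen. Gene values were not used here.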

Additional observations from a re-analysis of the deposited data

Results flagged for a closer look

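Of 99 groups of 4 mice examined, 6 held a mouse far from the other 3, and chance alone flags about 1 in 20 such groups. The log2 ratio of arterial to venous cells was 0.54 (0.535) in 1 dpi replicate B, against 1.07 to 1.16 in the other mice. The ribosomal protein share of arterial cells was 8.85% in uninjured replicate A, against 11.1% to 11.3%. Antisense transcripts were 0.0721% in uninjured replicate B, against 0.0874% to 0.0900%. Bidirectional promoter lncRNAs were 0.00630% in 3.5 dpi replicate D, which had 17 arterial cells, against 0.0170% to 0.0191%. The log2 difference in UMIs between arterial and capillary cells was 0.37 in uninjured replicate A, against 0.82 to 0.90. The difference in the snRNA share was -0.00394 points in 3.5 dpi replicate B, against 0.00118 to 0.00188.

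The difference between arterial and capillary cells in doublet score changed over the time course by -0.0759 between uninjured mice and 5 dpi, with an adjusted p of 0.0346 from the permutation F test. It was lower than the lowest uninjured value in all 3 mice at 5 dpi. Leaving out single mice gave an adjusted p between 0.0143 and 0.112.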

How the results depend on the processing

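The fall of the arterial share of cells at 3.5 dpi kept its direction, and the test over the time course kept its call, in all 33 alternatives tried. The 3.5 dpi difference was -6.00 points and lay between -6.47 and -5.43 when single mice were left out. Counted among non-immune cells, 2 time points passed instead of 5. A fit with the replicate block gave -6.00 points (permutation F test, adjusted p = 0.000391) and 5 time points. However, each library is a different mouse, and the labels do not say whether a letter marks a shared day. Deviations of the transformed cell type shares from group means were correlated between mice of different groups. Of 48 same-letter pairs 20 had a correlation over 0.1, with a median of -0.0228 and a lowest of -0.798. Pairs with other letters had a median of 0.0226.

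The endothelial share at 5 dpi, -4.67 points, passed with the stricter filter (-12.3 points) and with the labels before the last filter (-4.86 points), and ranged from -5.85 to -2.40 when single mice were left out. Of 3 ratios, 1 passed, with 0 under BBKNN labels, 2 under the stricter filter, and 0 to 2 when single mice were left out. Of 14 measures 3 passed, with 1 among cells with 2000 to 10000 UMIs and 1 to 4 when single mice were left out. Of the arterial minus capillary differences over time 1 passed, with 2 when mean and median were exchanged, 0 among cells with 2000 to 10000 UMIs, and 0 to 2 when single mice were left out. The cause was not tested.

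Some small differences changed sign. With mean and median exchanged, the heat shock protein change over time was 0.114, and the arterial minus capillary differences were 0.00302 for bidirectional promoter lncRNAs, 0.000438 for snoRNAs and 0.000177 for snRNAs. The arterial minus venous differences were then 0.382 (mitochondrial), -0.00192 (bidirectional promoter lncRNAs) and -3.43e-05 (snRNAs), and the arterial minus smooth muscle difference was -3.23e-05 (snoRNAs). Among cells with 2000 to 10000 UMIs, arterial minus capillary was 0.410 (mitochondrial) and 0.0413 (lincRNAs), arterial minus venous 0.181 (protein-coding), -8.41e-05 (snoRNAs) and -0.000469 (snRNAs), and arterial minus smooth muscle -0.00107 (snoRNAs). The mitochondrial arterial minus venous difference was 0.0138 with a minimum of 20 cells and ranged from -0.262 to 0.166 when single mice were left out, and the snRNA change over time from -0.00192 to 0.000611. Groups of 3 or 4 mice and as few as 17 arterial cells in a mouse limit what could be detected.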
